A study of Mus musculus with 24 samples.

Results

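Transcripts of 10 feedback genes of the extracellular signal-regulated kinase (ERK) pathway were followed in mouse embryonic fibroblasts (MEFs), which are cultured cells of embryonic connective tissue. The genes were Dusp4, Dusp5 and Dusp6, Spry1, Spry2 and Spry4, Spred1 and Spred2, and Etv4 and Etv5. They were taken from the table of estimated counts by their symbols, not by their values, and each symbol occurred once among the 55487 genes listed. All 10 passed the filter on low counts that left 15828 genes, and none of them had fewer than 22 counts in any library.

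Poly(A) RNA was sequenced from wild-type (WT) MEFs and from MEFs labelled AMPK KO, which according to the methods of the study lack both catalytic subunits of AMP-activated protein kinase (AMPK), encoded by Prkaa1 and Prkaa2. Cells of each genotype received either DMSO as the vehicle, or the direct AMPK activator MK-8722, or torin1, which inhibits the kinase MTOR. This gave 6 groups of 4 libraries, 24 in all, with neither dose nor treatment time given in the labels. Every group held 1 library of each passage of its genotype, namely passages 12 to 15 for WT and passages 16 to 19 for AMPK KO. The genotypes came as separate cell stocks from another laboratory, with the number of embryos or clones not given in the sources used here, so that genotype, cell stock and passage range cannot be told apart. No label says that the libraries of a group were separate experiments beyond their passage, and the p-values therefore measure only the spread between these libraries.

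ERK is the last kinase of the cascade that runs from growth factor receptors through RAS, RAF and MEK. Active ERK induces its own brakes. DUSP4, DUSP5 and DUSP6 are phosphatases that remove the activating phosphates from MAP kinases, DUSP6 in the cytoplasm and DUSP5 and DUSP4 in the nucleus. Sprouty and SPRED proteins, encoded by the Spry and Spred genes, act further upstream at the level of receptors, RAS and RAF, with SPRED proteins known to recruit the RAS inhibitor neurofibromin. ETV4 and ETV5 are ETS transcription factors whose genes are induced by the pathway and which carry its signal into transcription.

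The upstream sequences of Etv5 and Dusp6 are shown because these were the members whose responses to both drugs differed between the genotypes in the tests given below. Both were read from RefSeq promoter windows of GRCm38.p6, trimmed to the bases before the RefSeq start and outside the GENCODE gene, and are written 5′ to 3′ on the gene's strand. Capitals in the Etv5 sequence mark the FOXO core GTAAACA.
Etv5 (chr16:22439720-22439820, minus strand): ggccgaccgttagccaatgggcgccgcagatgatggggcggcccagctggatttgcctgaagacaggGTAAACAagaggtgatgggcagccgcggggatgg
Dusp6 (chr10:99262981-99263230, plus strand): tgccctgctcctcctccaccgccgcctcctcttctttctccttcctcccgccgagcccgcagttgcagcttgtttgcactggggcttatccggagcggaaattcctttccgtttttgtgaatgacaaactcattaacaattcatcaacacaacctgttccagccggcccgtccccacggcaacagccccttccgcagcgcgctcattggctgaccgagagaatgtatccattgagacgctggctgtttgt

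Of the 10 genes, 7 had an entry in the promoter table, with 8 windows of 300 bases that run from 250 bases before to 50 bases after a RefSeq start. Both strands of each window were searched for the ETS core CCGGAA, the CIC motifs TGAATGAA and TGAATGGA, the cyclic AMP response element TGACGTCA, the AP-1 motif TGANTCA, the E-box CACGTG and the FOXO core GTAAACA. The ETS core was in 1 of the 8 windows, that of Spry2, starting 34 bases after the start, and in 14.9% of all 32851 promoters. The FOXO core was in 1 of the 8, the Etv5 window from which the sequence above was taken, starting 183 bases before the start, and in 3.65% of all. The window of another Etv5 start (chr16:22438319-22438618) held none of the motifs. The other motifs were in none of the 8 windows and in 1.3%, 1.21%, 1.79%, 7.81% and 7.15% of all promoters in the order given. A match describes these letters only and is not a binding site.

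The members lie on 9 chromosomes of GRCm38, and all are protein-coding. Dusp4 (ENSMUSG00000031530) is on chromosome 8 at 34807297 to 34819894, Dusp5 (ENSMUSG00000034765) on chromosome 19 at 53529109 to 53542431 and Dusp6 (ENSMUSG00000019960) on chromosome 10 at 99263231 to 99267489. Spry1 (ENSMUSG00000037211) is on chromosome 3 at 37639947 to 37644598, Spry2 (ENSMUSG00000022114) on chromosome 14 at 105891947 to 105896819 and Spry4 (ENSMUSG00000024427) on chromosome 18 at 38586247 to 38601415. Spred1 (ENSMUSG00000027351) spans 117121374 to 117182279 of chromosome 2 and Spred2 (ENSMUSG00000045671) spans 19924375 to 20024026 of chromosome 11. Etv4 (ENSMUSG00000017724) is also on chromosome 11, at 101769742 to 101785371, and Etv5 (ENSMUSG00000013089) is on chromosome 16 at 22381309 to 22439719. The minus strand carries Spry2, Spry4, Etv4 and Etv5.

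Levels of different genes were compared in TPM, an abundance scaled for transcript length and library depth. Etv4 was the most abundant member, with group means between 95.3 and 130 TPM. Dusp5, Dusp6, Spred1, Spred2, Spry2 and Etv5 had group means from 8.32 TPM for Spry2 in AMPK KO with DMSO to 42.5 TPM for Dusp5 in WT with MK-8722. Spry1, Spry4 and, in WT, Dusp4 were rare. Spry1 ranged from 0.644 to 2.04 TPM and Spry4 from 0.807 to 3.39 TPM over the 24 libraries, and Dusp4 had a mean of 0.46 TPM in WT with DMSO and 8.98 TPM in AMPK KO with torin1. All further levels are normalised counts in CPM, scaled to library size with TMM factors, which compare the same gene between libraries.

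Libraries held 26900240 to 34192685 estimated counts and RNA integrity numbers were 9.7 to 10, so depth differed little, and the limit for rare members was their own count, such as 22 to 25 counts for Dusp4 in WT with DMSO. All carry the same batch label. The 36 replicate pairs differed by more than sampling noise, with a chi-square per degree of freedom of 3.52 to 26.5. Prkaa1 was counted 2046 to 2686 times and Prkaa2 78 to 186 times per AMPK KO library, against 2043 to 2773 and 88 to 271 times in WT. A count over the whole gene does not show whether the deleted part was transcribed and does not check the knockout. The fibroblast markers Vim and Fn1 were at 1940 TPM or more and 446 TPM or more in every library, while Lum (at most 0.0201 TPM) and Dcn (at most 0.348 TPM) were at or near 0. The 10 fibroblast markers summed to between 6620 and 10600 TPM in WT libraries and between 3360 and 5410 TPM in those of AMPK KO. Vim was the largest part of this sum in every library. Of 15 markers of other cell types, 12 had a median under 1 TPM and Adgre1 was at 0 throughout. The other 3 were the neuronal marker Tubb3, at 40.2 to 100 TPM, the macrophage marker Cd68, at 1.64 to 5.82 TPM, and the epithelial marker Epcam, at 0.354 to 4.67 TPM.

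Counts of members called are read below against all genes tested. A gene was called when the adjusted p of the edgeR quasi-likelihood test was under 0.05 and the fold change at least 1.2. With MK-8722 against DMSO, 2 members were higher and 3 lower in WT, where 15.7% of all genes were called, and 2 were higher and 0 lower in AMPK KO, where 1.56% were called. With torin1, 1 member was higher and 2 were lower in WT against a background of 47.6%, and 3 were higher and 0 lower in AMPK KO against a background of 43.5%. Between the genotypes in DMSO, 8 of 10 members were called, 7 of them lower in AMPK KO, and 56.9% of all genes were called. In MK-8722 and in torin1, 5 of 10 were called between the genotypes, near the backgrounds of 58.9% and 54.6%. Torin1 against MK-8722 called 1 member higher and 4 lower in WT (45.7% of all genes) and 2 lower in AMPK KO (45.5%). The difference between the genotypes in drug response, tested as an interaction, was called for 5 members with MK-8722 (12.8% of all genes) and for 4 with torin1 (7.07%). In these interactions a positive value means that the log2 fold change was higher in AMPK KO than in WT. The comparisons with DMSO share their DMSO libraries, and so do both interactions.

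**Figure D1:**
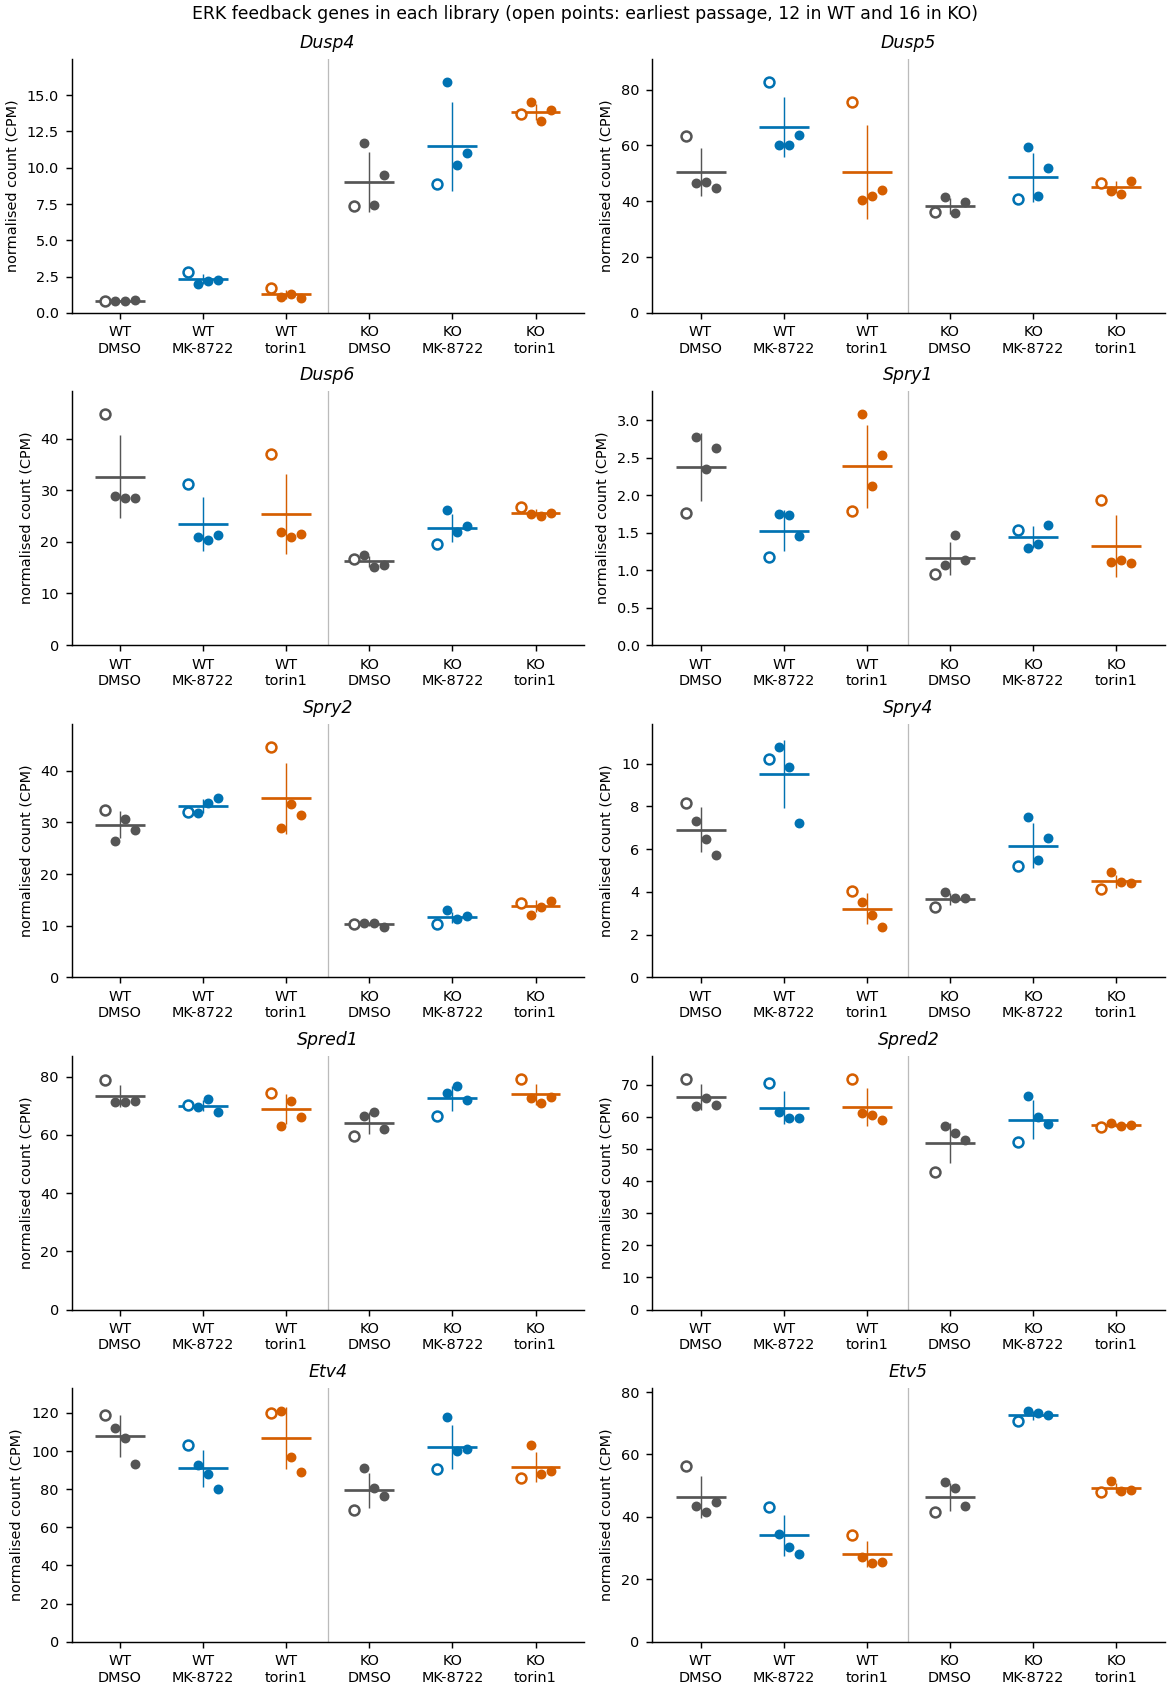
Normalised counts (CPM, linear axis from 0) of the 10 genes in each of the 24 libraries, by group. Horizontal bars are group means, vertical lines 1 SD, n = 4, and open points are the libraries of passage 12 (WT) or 16 (AMPK KO); Dusp4 lies between 0.785 and 2.78 CPM in WT and between 7.35 and 15.9 CPM in AMPK KO.

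Dusp4 rose with MK-8722 in WT and with torin1 in both genotypes, and it was the member with the widest gap between genotypes. In WT the 4 replicates, in order, were at 0.807, 0.805, 0.865 and 0.785 CPM with DMSO, at 2.02, 2.78, 2.28 and 2.2 CPM with MK-8722, and at 1.05, 1.08, 1.27 and 1.69 CPM with torin1. These 3 groups did not overlap, with DMSO lowest and MK-8722 highest. The log2 fold change against DMSO was 1.51 with MK-8722 (SE 0.24, adjusted p = 2.8e-05), a 2.84-fold rise, and 0.65 with torin1 (SE 0.25, adjusted p = 0.028). The torin1 call rested on few counts, 29 to 53 per library, and was lost without WT DMSO replicate 1, 2 or 4 (log2 fold changes of 0.63, 0.63 and 0.62, adjusted p = 0.057, 0.059 and 0.066), without WT torin1 replicate 4 (0.47, adjusted p = 0.14) and without the 3 WT libraries of passage 12 (0.46, adjusted p = 0.22).

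In AMPK KO, Dusp4 was at 9.49, 11.7, 7.35 and 7.41 CPM with DMSO, at 11, 8.87, 15.9 and 10.2 CPM with MK-8722 and at 13.7, 14.5, 13.2 and 14 CPM with torin1. The MK-8722 group overlapped both others, whereas every torin1 library was above every DMSO library. Torin1 raised Dusp4 by a log2 fold change of 0.62 (SE 0.15, adjusted p = 0.001), while the value with MK-8722 was 0.36 (SE 0.15, adjusted p = 0.23). The MK-8722 response differed between the genotypes by -1.15 (SE 0.28, adjusted p = 0.0059), and that of torin1 by -0.02 (SE 0.29, adjusted p = 0.98). Every AMPK KO library exceeded every WT library under the same treatment, 11-fold in DMSO (log2 fold change 3.45, SE 0.22, adjusted p = 2.6e-13), 4.94-fold in MK-8722 and 10.8-fold in torin1. Torin1 was below MK-8722 in WT (-0.86, SE 0.21, adjusted p = 0.0013). In AMPK KO the value of torin1 against MK-8722 was 0.27 (SE 0.15, adjusted p = 0.13), called higher without AMPK KO MK-8722 replicate 3 (0.41, adjusted p = 0.013), with passage as a block (0.29, adjusted p = 0.0082) and with scaling by library size alone (0.35, adjusted p = 0.037).

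Dusp5 did not pass the test for either drug in either genotype, although it did for MK-8722 in both with passage as a block. In WT it was at 47, 46.6, 44.9 and 63.4 CPM with DMSO, at 60.2, 82.7, 63.9 and 60.0 CPM with MK-8722 and at 44, 40.6, 41.9 and 75.6 CPM with torin1. The highest value of each WT group was the library of passage 12, which is replicate 4 with DMSO and torin1 and replicate 2 with MK-8722. With MK-8722 the log2 fold change was 0.4 (SE 0.16, adjusted p = 0.066), and the gene was called when WT DMSO replicate 4 was left out (0.53, adjusted p = 0.02), without the 3 libraries of passage 12 (0.4, adjusted p = 0.004), with passage as a block (0.4, adjusted p = 0.00032), without the filter on low counts (0.38, adjusted p = 0.042) and in the compared groups alone (0.4, adjusted p = 0.043). In AMPK KO the ranges were 35.7 to 41.7 CPM with DMSO, 40.9 to 59.5 CPM with MK-8722 and 42.6 to 47.4 CPM with torin1. The MK-8722 value was 0.34 (SE 0.16, adjusted p = 0.3), which became a call with passage as a block (0.33, adjusted p = 0.0088). The torin1 and DMSO ranges did not overlap there, but the log2 fold change of 0.23 (SE 0.16, adjusted p = 0.23) was not called.

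Between the genotypes, Dusp5 was lower in AMPK KO in DMSO (log2 fold change -0.4, SE 0.16, adjusted p = 0.033) and in MK-8722 (-0.46, SE 0.16, adjusted p = 0.013), in both without overlap of the ranges. Both calls depended on single libraries. That in DMSO was lost without WT DMSO replicate 4 (-0.28, adjusted p = 0.14), without AMPK KO DMSO replicate 3 (-0.38, adjusted p = 0.069) or 4 (-0.37, adjusted p = 0.075) and with scaling by library size alone (-0.26, adjusted p = 0.15). That in MK-8722 was lost without WT MK-8722 replicate 2 (-0.35, adjusted p = 0.066). In WT, torin1 was below MK-8722 (-0.4, SE 0.16, adjusted p = 0.035), a call lost without MK-8722 replicate 2 (-0.26, adjusted p = 0.19) or 3 (-0.4, adjusted p = 0.058) and without torin1 replicate 1, 2 or 3 (-0.32, -0.32 and -0.29, adjusted p = 0.13, 0.11 and 0.16), with scaling by library size alone (-0.31, adjusted p = 0.089) and in the compared groups alone (-0.39, adjusted p = 0.1).

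Dusp6 fell with MK-8722 in WT and rose with torin1 in AMPK KO. In WT it was at 28.5, 28.9, 28.4 and 44.7 CPM with DMSO, at 20.9, 31.3, 21.4 and 20.3 CPM with MK-8722 and at 21.5, 22, 21 and 37 CPM with torin1. The library of passage 12 stood above the other 3 in each group, so that the ranges overlapped, although the other 3 libraries of each drug were all below the other 3 of DMSO. MK-8722 lowered Dusp6 in WT by a log2 fold change of -0.48 (SE 0.17, adjusted p = 0.035), and the value with torin1 was -0.37 (SE 0.17, adjusted p = 0.061). The MK-8722 call was lost without WT DMSO replicate 4 (-0.28, adjusted p = 0.21) and without WT MK-8722 replicate 1, 3 or 4 (-0.42, -0.44 and -0.42, adjusted p = 0.095, 0.09 and 0.1), and in a fit of the compared groups alone (adjusted p = 0.074). It held with passage as a block and without the 3 WT libraries of passage 12. Torin1 was called lower without WT DMSO replicate 1, 2 or 3 (-0.44 in each case, adjusted p = 0.039, 0.04 and 0.037), without WT torin1 replicate 4 (-0.61, adjusted p = 0.00091), without the 3 libraries of passage 12 (-0.42, adjusted p = 6.3e-05), with passage as a block (-0.37, adjusted p = 1.3e-05), without the filter on low counts (-0.39, adjusted p = 0.021) and in DESeq2 (-0.36, adjusted p = 0.049).

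In AMPK KO, Dusp6 was at 15.6, 17.5, 16.7 and 15.1 CPM with DMSO, at 23, 19.5, 26.2 and 22 CPM with MK-8722 and at 26.7, 25.3, 25.1 and 25.6 CPM with torin1. Both drug groups lay above every DMSO library. Torin1 raised the gene 1.58-fold (log2 fold change 0.66, SE 0.17, adjusted p = 0.0019). The value with MK-8722 was 0.48 (SE 0.17, adjusted p = 0.14), which became a call with passage as a block (0.48, adjusted p = 5.3e-05) or in a fit of the compared groups alone (0.48, adjusted p = 0.017). The response differed between the genotypes by 0.96 with MK-8722 (SE 0.24, adjusted p = 0.0073) and by 1.03 with torin1 (SE 0.24, adjusted p = 0.0076). In DMSO, AMPK KO was 2.01-fold below WT (-1.01, SE 0.17, adjusted p = 1.2e-05) without overlap. Under the drugs the genotypes overlapped, with values of -0.05 in MK-8722 (SE 0.17, adjusted p = 0.8) and 0.02 in torin1 (SE 0.17, adjusted p = 0.93).

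Among the Sprouty genes, Spry1 fell with MK-8722 in WT. It was at 2.35, 2.78, 2.63 and 1.76 CPM with DMSO, at 1.75, 1.17, 1.45 and 1.73 CPM with MK-8722 and at 2.54, 3.08, 2.13 and 1.79 CPM with torin1. Every MK-8722 library was below every library of the other WT groups, by a narrow margin to the passage 12 libraries. The log2 fold change was -0.63 (SE 0.21, adjusted p = 0.025) on 32 to 76 counts per library, and the call was lost without WT DMSO replicate 2 (-0.57, adjusted p = 0.071) or 3 (-0.6, adjusted p = 0.06) and without WT MK-8722 replicate 2 (-0.53, adjusted p = 0.082) or 3 (-0.61, adjusted p = 0.058). Torin1 against MK-8722 was 0.64 (SE 0.21, adjusted p = 0.011), lost without WT torin1 replicate 2 (0.48, adjusted p = 0.063). With torin1 against DMSO the value was 0 (SE 0.2, adjusted p = 0.99).

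In AMPK KO, Spry1 was at 1.14, 1.07, 0.946 and 1.47 CPM with DMSO, at 1.6, 1.53, 1.29 and 1.35 CPM with MK-8722 and at 1.94, 1.11, 1.14 and 1.1 CPM with torin1. The 3 groups overlapped, and neither drug was called. The genotypes differed in their response to MK-8722 by 0.95 (SE 0.3, adjusted p = 0.031), which was no longer called in 8 of 16 fits without 1 library. These were the fits without WT DMSO replicate 2 or 3 (0.89 and 0.91, adjusted p = 0.06 and 0.055), WT MK-8722 replicate 2 or 3 (0.84 and 0.93, adjusted p = 0.058 in both), AMPK KO DMSO replicate 1, 2 or 3 (0.95, 0.92 and 0.87, adjusted p = 0.052, 0.054 and 0.069) or AMPK KO MK-8722 replicate 1 (0.91, adjusted p = 0.059). Spry1 was lower in AMPK KO than in WT in DMSO (-1.03, SE 0.21, adjusted p = 0.00013) and in torin1 (-0.85, SE 0.21, adjusted p = 0.00085), and the value in MK-8722 was -0.08 (SE 0.22, adjusted p = 0.76).

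Spry2 separated the genotypes under every treatment. In WT it was at 30.7, 26.5, 28.6 and 32.5 CPM with DMSO, at 31.9, 32.1, 34.7 and 33.8 CPM with MK-8722 and at 31.4, 29, 33.6 and 44.7 CPM with torin1. In AMPK KO it was at 9.68, 10.5, 10.3 and 10.6 CPM with DMSO, at 11.9, 10.3, 13 and 11.2 CPM with MK-8722 and at 14.4, 12.1, 13.7 and 14.7 CPM with torin1. The lowest WT library, at 26.5 CPM, was above the highest AMPK KO library, at 14.7 CPM. AMPK KO was 2.88-fold lower in DMSO (log2 fold change -1.52, SE 0.1, adjusted p = 4.7e-12), 2.85-fold lower in MK-8722 and 2.53-fold lower in torin1.

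Torin1 raised Spry2 in AMPK KO without overlap with DMSO (0.41, SE 0.11, adjusted p = 0.002). In WT the value was 0.23 (SE 0.097, adjusted p = 0.047), under the fold of 1.2, and it passed both limits without WT DMSO replicate 4 (0.27, adjusted p = 0.033), without WT torin1 replicate 1, 2 or 3 (0.29, 0.3 and 0.27, adjusted p = 0.018, 0.01 and 0.035) and with scaling by library size alone (0.33, adjusted p = 0.0049). With MK-8722 the values were 0.16 in WT (SE 0.098, adjusted p = 0.24) and 0.17 in AMPK KO (SE 0.11, adjusted p = 0.46). The response differed between the genotypes by 0.01 with MK-8722 (SE 0.15, adjusted p = 0.98) and by 0.19 with torin1 (SE 0.14, adjusted p = 0.48).

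Spry4 rose with MK-8722 in both genotypes and fell with torin1 in WT. In WT it was at 6.46, 7.31, 5.73 and 8.16 CPM with DMSO, at 10.8, 10.2, 7.23 and 9.84 CPM with MK-8722 and at 2.36, 3.52, 2.9 and 4.03 CPM with torin1. All torin1 libraries were below all others, and 3 of 4 MK-8722 libraries were above all DMSO libraries. The log2 fold change was 0.46 with MK-8722 (SE 0.14, adjusted p = 0.019) and -1.11 with torin1 (SE 0.15, adjusted p = 1.2e-06), a 2.16-fold fall. The MK-8722 call in WT was lost without WT DMSO replicate 1 (0.41, adjusted p = 0.062) or 3 (0.36, adjusted p = 0.087) and without WT MK-8722 replicate 1 (0.39, adjusted p = 0.063) or 4 (0.43, adjusted p = 0.052). The torin1 call held in all fits without 1 library.

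In AMPK KO, Spry4 was at 3.73, 3.98, 3.29 and 3.69 CPM with DMSO, at 6.52, 5.2, 7.49 and 5.47 CPM with MK-8722 and at 4.15, 4.92, 4.45 and 4.43 CPM with torin1. The groups did not overlap, with MK-8722 highest and DMSO lowest. MK-8722 raised the gene 1.68-fold (0.75, SE 0.15, adjusted p = 0.0091), and torin1 gave 0.29 (SE 0.15, adjusted p = 0.12), which became a call with passage as a block (0.29, adjusted p = 0.0072) and with scaling by library size alone (0.35, adjusted p = 0.045). The response to torin1 differed between the genotypes by 1.4 (SE 0.22, adjusted p = 3e-04), and that to MK-8722 by 0.29 (SE 0.21, adjusted p = 0.39). AMPK KO was lower than WT in DMSO (-0.91, SE 0.15, adjusted p = 1e-05) and in MK-8722 (-0.62, SE 0.14, adjusted p = 0.00047). In torin1 it was higher (0.48, SE 0.16, adjusted p = 0.009), a call lost without WT torin1 replicate 1 (0.29, adjusted p = 0.11) or 3 (0.36, adjusted p = 0.075) or AMPK KO torin1 replicate 2 (0.36, adjusted p = 0.071). Torin1 was below MK-8722 in both genotypes, by -1.57 in WT (SE 0.15, adjusted p = 5.7e-09) and by -0.46 in AMPK KO (SE 0.15, adjusted p = 0.011).

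The Spred genes had small fold changes. Spred1 had group means between 64.1 ± 3.79 CPM (AMPK KO with DMSO) and 74 ± 3.62 CPM (AMPK KO with torin1, SD of 4 libraries), and WT means of 73.4, 70.1 and 68.9 CPM for DMSO, MK-8722 and torin1. Neighbouring groups in the order of means overlapped throughout. Groups further apart did not all overlap. AMPK KO with DMSO, at 59.7 to 67.8 CPM, lay below AMPK KO with torin1, at 71.1 to 79.3 CPM, and below WT with DMSO, at 71.3 to 78.9 CPM. In these comparisons 53.8% and 64% of all genes did not overlap. In AMPK KO, torin1 gave a log2 fold change of 0.21 (SE 0.056, adjusted p = 0.0026), under the fold of 1.2, and scaling by library size alone took it past that limit (0.27, adjusted p = 0.00015). The torin1 response differed between the genotypes by 0.3 (SE 0.079, adjusted p = 0.018). That call was lost in 8 of 16 fits without 1 library, with values of 0.2, 0.26 and 0.25 without WT torin1 replicate 1, 2 or 3, of 0.19 and 0.25 without AMPK KO DMSO replicate 3 or 4, and of 0.26, 0.23 and 0.23 without AMPK KO torin1 replicate 1, 2 or 4, and in a fit of the compared groups alone (0.23, adjusted p = 0.091) and with scaling by library size alone (0.26, adjusted p = 0.035). With MK-8722 the difference was 0.25 (SE 0.079, adjusted p = 0.035), under the fold of 1.2, and it passed that fold without WT DMSO replicate 1, 2 or 3 (0.27 each), WT MK-8722 replicate 4 (0.26), AMPK KO DMSO replicate 4 (0.27) or AMPK KO MK-8722 replicate 2 (0.3).

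Spred2 had group means between 51.9 ± 6.28 CPM (AMPK KO with DMSO) and 66.2 ± 3.94 CPM (WT with DMSO, SD of 4 libraries). No drug changed it by the test in either genotype, with log2 fold changes between -0.08 and 0.19 and a lowest adjusted p of 0.13. AMPK KO was lower than WT in DMSO (-0.35, SE 0.081, adjusted p = 5e-04) without overlap, a call lost with scaling by library size alone (-0.21, adjusted p = 0.014), where the fold was under 1.2. The MK-8722 difference between the genotypes, 0.26 (SE 0.11, adjusted p = 0.12), was called without AMPK KO MK-8722 replicate 2 (0.33, adjusted p = 0.045) and with passage as a block (0.27, adjusted p = 0.005).

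Etv4, the most abundant member, was called for neither drug in either genotype. In WT its libraries ranged from 93.1 to 119 CPM with DMSO, from 80.1 to 103 CPM with MK-8722 and from 89.3 to 121 CPM with torin1, and in AMPK KO from 69.3 to 91.2, from 90.5 to 118 and from 86 to 103 CPM. The MK-8722 value was -0.25 in WT (SE 0.1, adjusted p = 0.084) and 0.37 in AMPK KO (SE 0.1, adjusted p = 0.058), and the difference of 0.61 (SE 0.15, adjusted p = 0.0056) was called, also in all 16 fits without 1 library. The WT value was called without WT DMSO replicate 3 (-0.32, adjusted p = 0.031), without WT MK-8722 replicate 2 (-0.31, adjusted p = 0.041) and without the filter on low counts (-0.27, adjusted p = 0.037). The AMPK KO value was called without AMPK KO DMSO replicate 2 (0.44, adjusted p = 0.037) or AMPK KO MK-8722 replicate 2 (0.42, adjusted p = 0.042), with a replicate block (0.38, adjusted p = 0.035), with passage as a block (0.37, adjusted p = 6.4e-06), without the filter (0.36, adjusted p = 0.027), in the compared groups alone (0.36, adjusted p = 0.045) and in DESeq2 (0.36, adjusted p = 0.02).

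Torin1 gave Etv4 values of -0.01 in WT (SE 0.1, adjusted p = 0.92) and 0.21 in AMPK KO (SE 0.1, adjusted p = 0.097), the latter called without AMPK KO DMSO replicate 2 (0.27, adjusted p = 0.04) and with scaling by library size alone (0.27, adjusted p = 0.02). In DMSO, AMPK KO was 1.36-fold below WT (-0.44, SE 0.1, adjusted p = 0.00063). In MK-8722 the value was 0.17 (SE 0.1, adjusted p = 0.15), called with scaling by library size alone (0.28, adjusted p = 0.011). In torin1 it was -0.22 (SE 0.1, adjusted p = 0.063), called without WT torin1 replicate 1 or 3 (-0.37 and -0.34, adjusted p = 0.0034 and 0.0098) or AMPK KO torin1 replicate 2 or 4 (-0.36 and -0.29, adjusted p = 0.0066 and 0.035) and without the filter on low counts (-0.26, adjusted p = 0.014). Torin1 against MK-8722 was 0.23 in WT (SE 0.1, adjusted p = 0.06), called without WT MK-8722 replicate 2 (0.32, adjusted p = 0.018) or WT torin1 replicate 1 or 3 (0.33 and 0.3, adjusted p = 0.011 and 0.026) and with scaling by library size alone (0.32, adjusted p = 0.0057), and -0.16 in AMPK KO (SE 0.1, adjusted p = 0.19), called without AMPK KO torin1 replicate 2 (-0.27, adjusted p = 0.045).

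Etv5 fell with both drugs in WT and rose with MK-8722 in AMPK KO. In WT it was at 41.5, 43.4, 44.7 and 56.4 CPM with DMSO, at 34.4, 43.2, 28.2 and 30.4 CPM with MK-8722 and at 25.7, 27.2, 25.1 and 34.1 CPM with torin1. Every torin1 library was below every DMSO library, and only the passage 12 library of MK-8722, at 43.2 CPM, reached the DMSO range. The log2 fold change was -0.45 with MK-8722 (SE 0.11, adjusted p = 0.0035) and -0.73 with torin1 (SE 0.11, adjusted p = 4.7e-06), which are 1.37-fold and 1.66-fold falls. Both were called in all fits without 1 library.

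In AMPK KO, Etv5 was at 43.5, 51.2, 41.6 and 49.2 CPM with DMSO, at 72.5, 70.6, 73.9 and 73.3 CPM with MK-8722 and at 48, 51.6, 48.4 and 48.7 CPM with torin1. The MK-8722 libraries formed a narrow group above all other 20 libraries of the series. MK-8722 raised the gene 1.57-fold (0.65, SE 0.11, adjusted p = 0.0022), and the value with torin1 was 0.09 (SE 0.11, adjusted p = 0.53). The response differed between the genotypes by 1.1 with MK-8722 (SE 0.15, adjusted p = 2.5e-05) and by 0.82 with torin1 (SE 0.16, adjusted p = 0.0019), both in all 16 fits without 1 library. In DMSO the mean was 46.5 ± 6.76 CPM for WT, and for AMPK KO it was 46.4 ± 4.56 CPM (SD, 4 libraries each), with overlapping ranges. In MK-8722, AMPK KO was 2.13-fold above WT (1.09, SE 0.11, adjusted p = 4.2e-09), and in torin1 1.75-fold above it (0.81, SE 0.11, adjusted p = 7.1e-07). Torin1 was below MK-8722 in AMPK KO (-0.56, SE 0.11, adjusted p = 9.3e-05). In WT it was also below (-0.28, SE 0.11, adjusted p = 0.037), a call lost without WT MK-8722 replicate 1 or 2 (-0.29 and -0.12, adjusted p = 0.053 and 0.33), without WT torin1 replicate 1, 2 or 3 (-0.22, -0.28 and -0.2, adjusted p = 0.14, 0.063 and 0.17), with an offset for transcript length (-0.24, adjusted p = 0.18), with scaling by library size alone (-0.19, adjusted p = 0.14) and in the compared groups alone (-0.27, adjusted p = 0.11), and without the 3 WT libraries of passage 12 (-0.25, adjusted p = 0.0065), where the fold was under 1.2.

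**Figure D2:**
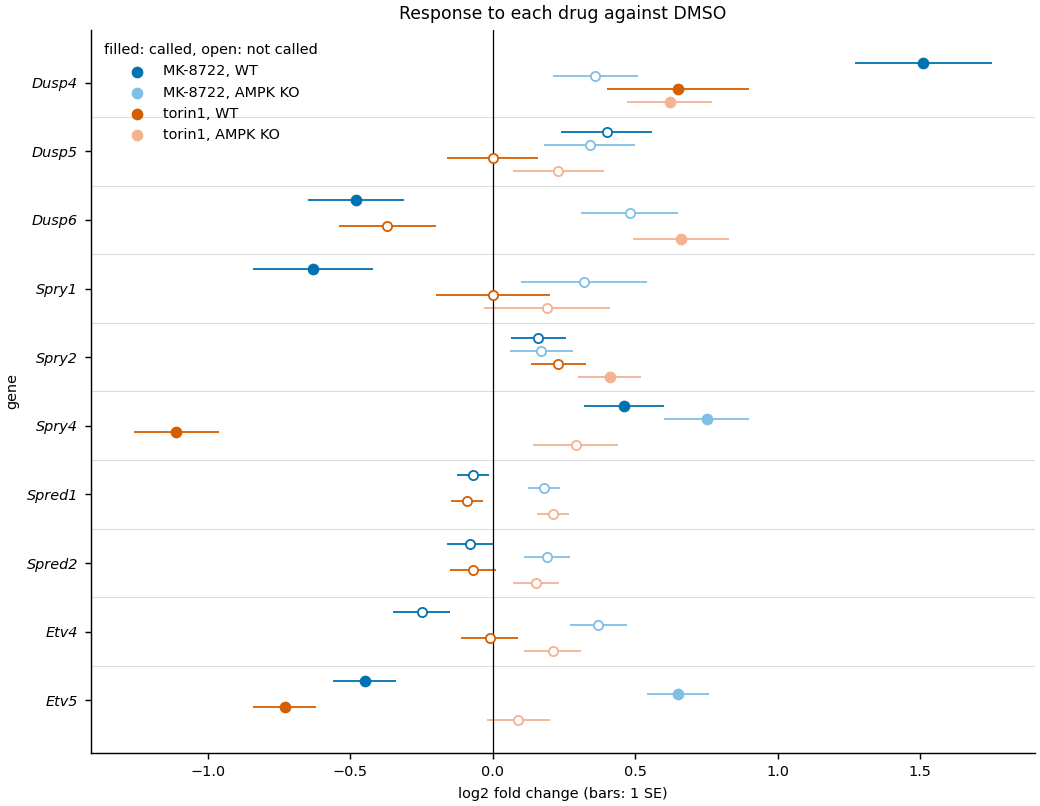
Log2 fold changes of the 10 genes with each drug against DMSO in each genotype (x axis), with bars of 1 SE, filled points where the gene was called and open points where it was not. Etv5 with MK-8722 lies at -0.45 in WT and 0.65 in AMPK KO, and Spry4 with torin1 at -1.11 and 0.29.

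The median over the 10 genes was -0.07 with MK-8722 in WT and 0.35 in AMPK KO, and -0.04 and 0.22 with torin1, where the medians over all genes tested were 0, 0, 0.04 and 0.06. With passage as a block, the number of members called higher with MK-8722 in AMPK KO rose from 2 to 6, as Dusp4 (0.35, adjusted p = 0.019), Dusp5 (0.33, adjusted p = 0.0088), Dusp6 and Etv4 were added, and the number of all genes called rose from 247 to 729. All 10 values were above 0 in that comparison. In WT they were above 0 for Dusp4, Dusp5, Spry2 and Spry4 and below 0 for the other 6. Scaling by library size alone raised the median of all genes with torin1 by 0.1 in WT and 0.06 in AMPK KO, and raised the number of members called higher from 1 to 2 and from 3 to 6.

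Some cell type markers moved with the drugs too. With MK-8722 in WT, 1 of 8 fibroblast markers and 3 of 8 markers of other cell types that could be tested were called, beside 15.7% of all genes. These were the endothelial marker Kdr at 2.88 (adjusted p = 2.8e-09, at most 2.15 TPM in any library), Cd68 at 0.83 (adjusted p = 0.00068), Tubb3 at -0.8 (adjusted p = 5.9e-07) and Pdgfrb at 0.4 (adjusted p = 0.024). In AMPK KO 0 of 8 were called in either list, where MK-8722 called 1.56% of all genes. With torin1, 6 of 8 and 6 of 8 were called in WT, beside 47.6% of all genes, and 7 of 8 and 3 of 8 in AMPK KO, beside 43.5%. Among them were Fn1 (0.84, adjusted p = 4.3e-09, and 0.68, adjusted p = 1.9e-07) and Col1a1 (-1.05, adjusted p = 0.00096, and -1.22, adjusted p = 0.00028). The summed level of the 15 markers of other cell types in WT was 70.5 to 90.2 TPM with DMSO, 48.4 to 56.7 TPM with MK-8722 and 55.1 to 73.7 TPM with torin1, and in AMPK KO it was 89.2 to 97.1, 98.2 to 107 and 65.6 to 77.6 TPM. The 10 fibroblast markers summed to 6620 to 8350, 6780 to 8290 and 8990 to 10600 TPM in WT and to 3610 to 4300, 3360 to 4150 and 4890 to 5410 TPM in AMPK KO. The part of these markers in the drug responses of the members was not tested.

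In DMSO, 7 of the 10 members were lower in AMPK KO, with a median over all 10 of -0.42 beside a median of 0.02 over all genes. Dusp5, Dusp6, Spry1, Spry2, Spry4, Spred2 and Etv4 were called lower, Dusp4 higher, and Spred1 had a log2 fold change of -0.2 (SE 0.056, adjusted p = 0.0033), under the fold of 1.2. The groups did not overlap for 9 of the 10, Etv5 being the other, and did not overlap for 64% of all genes. With MK-8722 and with torin1 the medians were -0.06 each. Scaling by library size alone raised the median of all genes between the genotypes by 0.14 in DMSO, 0.11 in MK-8722 and 0.1 in torin1, and left Dusp6, Spry1, Spry2, Spry4 and Etv4 called lower and Dusp4 called higher in DMSO. Several markers moved with genotype as well. In DMSO, the fibroblast collagen gene Col1a2 had a log2 fold change of -6.46 (adjusted p = 1.6e-13) and the surface marker Thy1 of -2.71 (adjusted p = 1.2e-05), and Epcam was at 1.53 (adjusted p = 2.5e-07) and Cdh5, an endothelial marker, at 4.64 (adjusted p = 2.5e-06), with Epcam at most 4.67 TPM and Cdh5 at most 0.634 TPM. All 8 fibroblast markers tested were called lower in AMPK KO in DMSO, as were 26% of all genes. Of the 8 markers of other cell types tested, 4 were called higher and 0 lower. Of all genes, 56.9% were called and 30.9% were called higher. The part of these differences between the cell stocks in the values of the members was not tested, and in bulk RNA fewer cells of a type and less RNA per cell cannot be told apart.

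**Figure D3:**
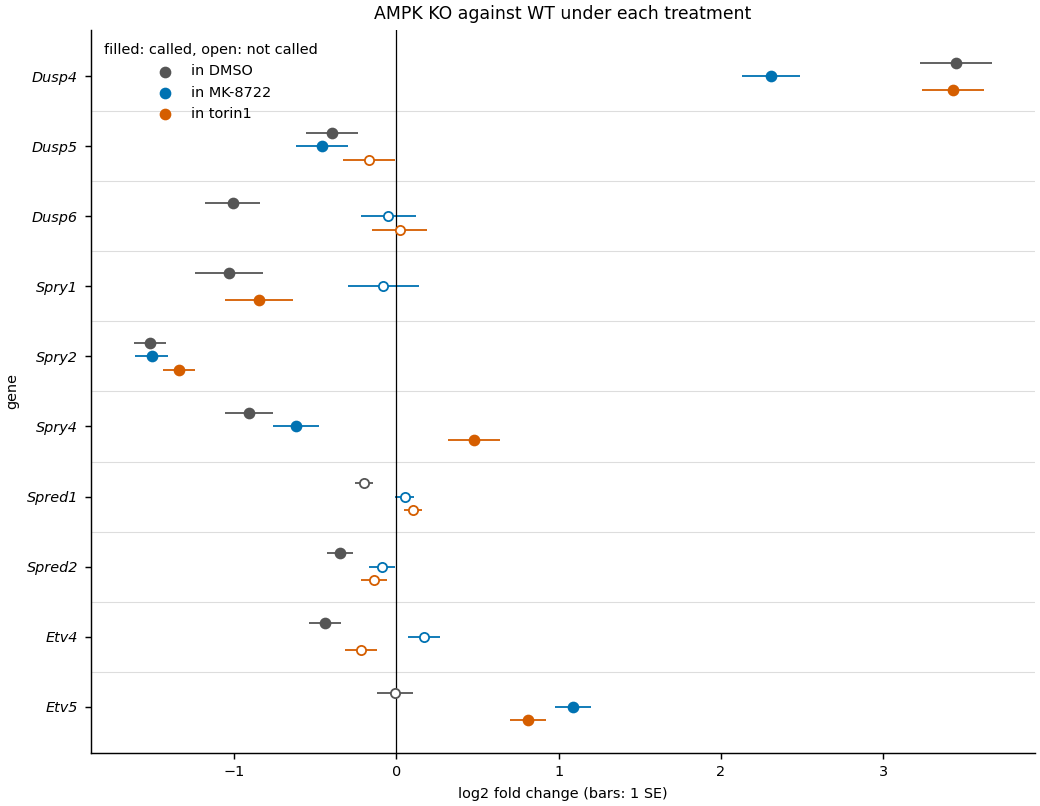
Log2 fold changes of the 10 genes in AMPK KO against WT under each treatment (x axis), with bars of 1 SE and filled points where the gene was called. Spry2 lies between -1.52 and -1.34 under all treatments, and Dusp6 moves from -1.01 in DMSO to -0.05 in MK-8722 and 0.02 in torin1.

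The other genes of the pathway were followed in 6 lists, whose counts are to be read against all genes tested. Of all genes, 10% were called higher and 5.66% lower with MK-8722 in WT, 0.866% and 0.695% in AMPK KO, 26.6% and 21.1% with torin1 in WT, 25.9% and 17.6% in AMPK KO, and 30.9% and 26% in AMPK KO against WT in DMSO. Among 12 other ERK-responsive genes, 1 was higher and 5 were lower with MK-8722 in WT (median -0.34, 15.7% of all genes called), and 1 was higher and 0 lower in AMPK KO (median 0.2, 1.56%). Those lower in WT included Ccnd1, which encodes cyclin D1 and drives entry into the cell cycle (-0.66, adjusted p = 0.00056), and the immediate early gene Egr1 (-0.59, adjusted p = 0.0027), and the gene higher was Plaur, the urokinase receptor (0.66, adjusted p = 0.00084). The MK-8722 interaction was called for 6 of the 12, all positive, beside 12.8% of all genes, the largest being 1.1 for Ccnd1 (adjusted p = 0.00026) and 0.83 for Ier2 (adjusted p = 4.2e-05). Torin1 lowered 6 and raised 1 of the 12 in WT (median -0.35, 47.6% of all genes called) and lowered 3 and raised 1 in AMPK KO (median -0.04, 43.5%), with Ccnd1 at -1.39 (adjusted p = 5.7e-09) and -1 (adjusted p = 1.2e-06) and Fosl1, an AP-1 subunit, at -1.18 (adjusted p = 7.8e-07) and -0.61 (adjusted p = 0.0017). In DMSO, 7 of the 12 were lower and 2 higher in AMPK KO (median -0.46, 56.9% of all genes called).

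Of 20 ligands and receptors, 4 were higher and 0 lower with MK-8722 in WT and 1 was higher and 1 lower in AMPK KO. Fgfr2, a fibroblast growth factor receptor, was higher in WT (0.99, adjusted p = 2.8e-08) and lower in AMPK KO (-0.72, adjusted p = 0.012), and Areg, encoding the EGF receptor ligand amphiregulin, was higher in AMPK KO (0.87, adjusted p = 0.0073). Torin1 raised 8 and lowered 4 of the 20 in WT and raised 5 and lowered 6 in AMPK KO, where it called 47.6% and 43.5% of all genes. The receptor genes Pdgfra (2.75, adjusted p = 1.1e-07, and 1.13, adjusted p = 0.0027) and Egfr (1.37, adjusted p = 5.6e-10, and 0.86, adjusted p = 3.6e-07) rose with torin1 in WT and in AMPK KO, and the ligand gene Ereg fell (-1.12, adjusted p = 1.3e-05, and -1.43, adjusted p = 7.7e-06). Between the genotypes in DMSO, 18 of 20 were called beside 56.9% of all genes, 8 higher and 10 lower in AMPK KO, with Fgf7 at -7.02 (adjusted p = 5.6e-14) and Fgf1 at 3.9 (adjusted p = 1.8e-06). The SEs of these genotype differences are not given here, and their sizes are to be read with care. In another comparison, both genes were less precise in the genotype where they were lower. For MK-8722 against DMSO, the SE of Fgf7 was 0.86 in AMPK KO and 0.21 in WT, and that of Fgf1 was 1 in WT and 0.35 in AMPK KO.

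Of 20 genes of the RAS to ERK core, 2 were higher and 2 lower with MK-8722 in WT, among the former Mapk3, which encodes ERK1 (0.4, adjusted p = 0.00023). In AMPK KO 1 was called, the adaptor gene Gab1 (-0.31, adjusted p = 0.031). Torin1 lowered 10 and raised 4 of the 20 in WT (median -0.21) and lowered 7 and raised 4 in AMPK KO (median -0.15), beside 47.6% and 43.5% of all genes called. Ptpn11, encoding the phosphatase SHP2, fell in both (-0.85, adjusted p = 1.9e-14, and -0.62, adjusted p = 4.4e-12), and Mapk3 rose in both (0.79, adjusted p = 2.7e-09, and 0.51, adjusted p = 2e-06). Between the genotypes in DMSO, 2 of the 20 were higher and 5 lower in AMPK KO, led by Ksr1, a scaffold of the cascade (1.87, adjusted p = 1.4e-18), and Frs2, an adaptor of FGF receptors (-1.07, adjusted p = 8.1e-15).

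The nearest relatives of the members were 7 other MAP kinase phosphatases, 4 Sprouty and Spred relatives and partners, and 11 ETS and CIC factors. No phosphatase of that list was called with MK-8722 in either genotype. Torin1 raised 2 and lowered 4 of the 7 in WT and lowered 3 in AMPK KO, with Dusp8 at -1.11 (adjusted p = 1.4e-07) and -1.13 (adjusted p = 3.2e-07). All 7 were called between the genotypes in DMSO, 3 higher and 4 lower, with Dusp9 at 3.06 (adjusted p = 7.6e-16). Spred3 was higher with MK-8722 in AMPK KO (0.46, adjusted p = 0.0065) and with torin1 in both genotypes (0.66, adjusted p = 1.7e-06, in WT and 0.91, adjusted p = 6.4e-09, in AMPK KO), and Spry3 was lower with torin1 in WT (-1.08, adjusted p = 9.9e-05). Of the ETS and CIC factors, 2 were higher and 2 lower with MK-8722 in WT, including Etv1, the third gene of the Etv4 and Etv5 subfamily (-0.94, adjusted p = 0.0006), and 0 of 11 were called in AMPK KO. With torin1, 2 were higher and 3 lower in WT and 3 higher and 3 lower in AMPK KO, and Etv1 was higher in AMPK KO (0.74, adjusted p = 0.00051). In DMSO, 1 of these 4 Sprouty and Spred relatives was higher and 2 were lower in AMPK KO, as were 1 and 2 of the 11 ETS and CIC factors. The MK-8722 interaction was called for 4 ligands and receptors, 2 core genes, 2 other phosphatases, 0 Sprouty and Spred relatives and 2 ETS and CIC factors, and the torin1 interaction for 3, 1, 2, 1 and 2 of them, beside 12.8% and 7.07% of all genes.

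**Figure D4:**
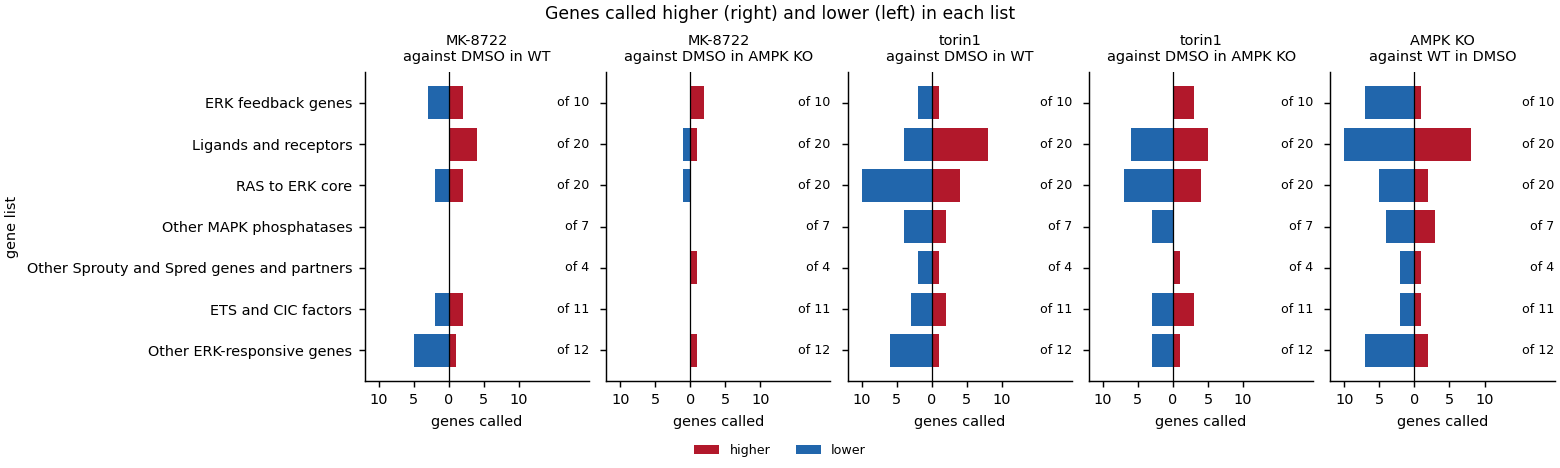
Number of genes called higher (bars to the right) and lower (bars to the left) in each list (y axis) for 5 comparisons, with the number tested beside each bar. Among the other ERK-responsive genes 5 of 12 are lower with MK-8722 in WT and 0 of 12 in AMPK KO.

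Libraries of the same group differed by passage. The WT library of passage 12 was the highest of its group in all 3 WT groups for Dusp5, Dusp6, Spred2 and Etv5, which is 4 of 10 members beside 10.1% of all genes, and the lowest in all 3 for Spry1, beside 7.87% of all genes. Its log2 CPM exceeded the mean of the other 3 libraries, in the median over the 10 genes, by 0.19 with DMSO, 0.24 with MK-8722 and 0.43 with torin1, where the median absolute deviation of all genes in these libraries was 0.131, 0.146 and 0.135. In AMPK KO, the library of passage 16 was the lowest of its group in all 3 groups for Spry4, Spred2, Etv4 and Etv5 (8.83% of all genes), and for none of the 10 the highest (7.56%). The passage 17 library was the highest for 7 members with DMSO, 8 with MK-8722 and 5 with torin1, beside 23.6%, 25.2% and 27.2% of all genes. Passage was not crossed with genotype, and no label says whether libraries of the same passage were processed together.

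**Figure D5:**
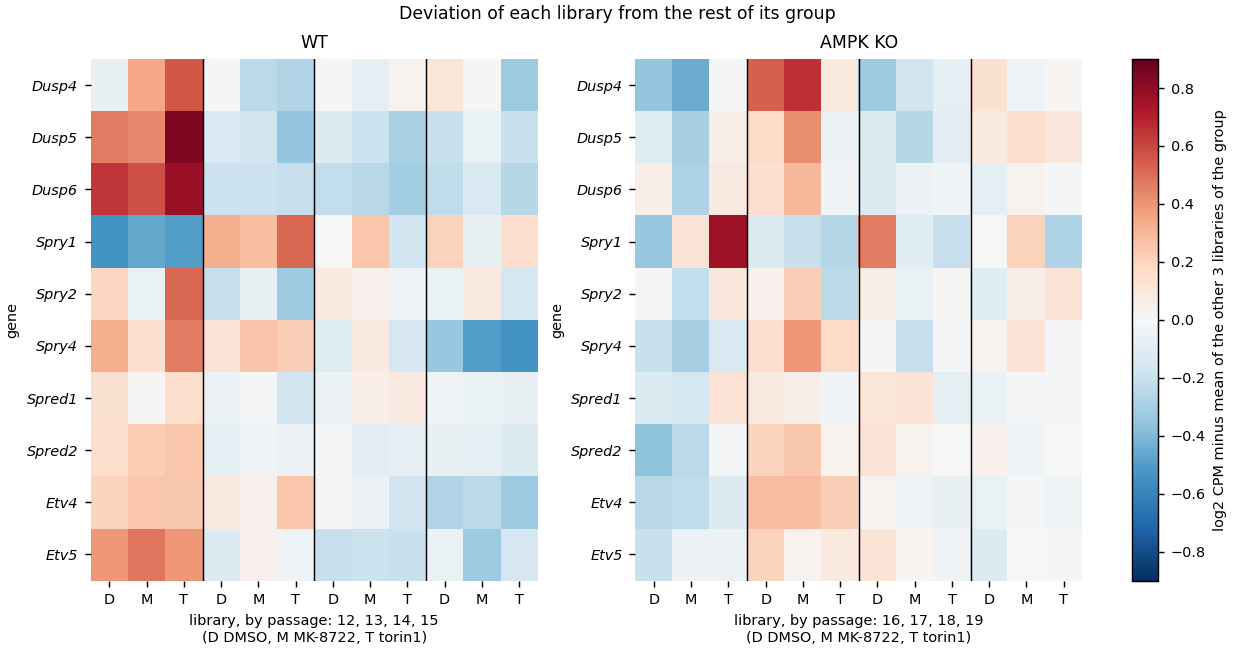
Log2 CPM of each library minus the mean of the other 3 libraries of its group (colour), for the 10 genes (y axis) and the 24 libraries ordered by passage (x axis, D for DMSO, M for MK-8722, T for torin1). Dusp5 and Dusp6 stand above the rest at passage 12 in WT, and Spry1 stands below.

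The deviations of single libraries from their group means went together for some members. Over the 24 libraries, these deviations had a correlation of 0.94 between Dusp5 and Dusp6, of 0.89 between Spry4 and Etv4 and of 0.83 between Dusp6 and Etv5, and the lowest were -0.62 between Dusp6 and Spry1 and -0.56 between Dusp5 and Spry1. These are descriptions of points that share passages and library totals. Over all libraries without removal of the group means, Dusp4 and Spry2 had a correlation of -0.87, which follows the gap between the genotypes.

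The genes most like each member by Pearson's r of log2 CPM over the 24 libraries were also listed. For Dusp4 they were Ttc7b (0.98), Palm3 (0.978) and Tec (0.977), for Dusp5 Iffo2 (0.862), Snx9 (0.859) and Rae1 (0.854), and for Dusp6 Twistnb (0.821), Spred2 (0.791) and Zfp275 (0.786). For Spry1 they were Tmem198b (0.866), Rbm47 (0.84) and Clmp (0.831), for Spry2 Nexn (0.99), Fam177a (0.988) and Mir100hg (0.987), and for Spry4 Usp31 (0.923), Itgb1 (0.922) and Mtdh (0.892). The Spred genes were closest to Dusp6 (0.699), Twistnb (0.683) and Polk (0.681) for Spred1 and to Sdad1 (0.884), Nol8 (0.858) and Tex10 (0.853) for Spred2. Etv4 was closest to Spred2 (0.81), Zyx (0.789) and Slc29a1 (0.751), and Etv5 to Ubtf (0.93), Hipk1 (0.928) and Imp4 (0.927). Members thus stood among the nearest genes of Dusp6, Spred1 and Etv4. The values near 1 for Dusp4 and Spry2 belong to genes that differ strongly between the genotypes.

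Shares of transcripts within a gene were described without a test. Dusp4, Dusp5, Spry2 and Spry4 had a single transcript in the tables, so that gene and transcript values are the same. For Etv5 the transcript ENSMUST00000079601 (3975 bases) made up 67.3% to 73.3% of the gene's TPM in the group means, and for Dusp6 ENSMUST00000020118 (2796 bases) made up 65.8% to 71.8%. For Spred2, ENSMUST00000093299 (4449 bases) held 58.5% to 62.1% of the TPM. Etv4 was divided among 12 transcripts, of which ENSMUST00000129995, a processed transcript of 672 bases, held 20.6% to 23.7%. For Spry1 the split between ENSMUST00000108109 and ENSMUST00000038569 ranged from 0% to 100% between libraries of the WT MK-8722 group, at 32 to 52 counts for the whole gene, and no difference between groups can be read from it.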

How the data were processed

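Poly(A) RNA of 24 libraries was sequenced in 52-base read pairs. In their methods, the authors ran nf-core/rnaseq with the STAR aligner on GRCm38 (Ensembl annotation) with options for unique molecular identifiers, and the submitters' processing notes also name Salmon. The deposited gene table holds estimated counts, not normalized. The deposited tables of transcripts give lengths, estimated counts and TPM, which the authors' pipeline scaled for length and depth. How far copies were removed by the identifiers was not tested here.

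Groups follow the labels for genotype and treatment. Estimated counts were rounded, filtered with filterByExpr (15828 of 55487 genes kept, 99.96% of counts), scaled with TMM factors and fitted with the edgeR quasi-likelihood model (edgeR 4.0.16, R 4.3.3) of 6 group means over all 24 libraries, so that groups share the estimate of the spread. The common biological coefficient of variation was 0.079. Tests were two-sided, in 11 comparisons, with Benjamini-Hochberg adjustment over all genes tested. Calls needed an adjusted p under 0.05 together with at least a 1.2-fold change. Standard errors come from the same fit. Gene TPM are sums over transcripts. Log2 CPM used a prior count of 2. The study's removal of batch effects was not repeated, as there is 1 batch label. Positions are from GENCODE and promoters from RefSeq (GRCm38.p6). The procedure was tested on simulated counts.

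The 10 genes and the 6 pathway lists, written from general knowledge, were chosen with earlier results of these data known. The 10 genes are named in every comparison, and, per list and comparison, at most 2 called genes in each direction, taken by size of change. Those named as most alike are the 3 with the highest r. The cell type markers given with values were picked for naming after their values were seen.

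Alternatives were DESeq2 size factors, scaling by library size alone, no filter, an offset for transcript length, replicate number or passage as a block, fits of the compared groups alone, DESeq2 1.42.0, a fold change of at least 1.5, and leaving out each library. Leaving out the 3 WT libraries of passage 12 was chosen later, with the data in view. Whether replicate numbers pair the libraries was checked by the correlation of deviations from group means.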

Additional observations from a re-analysis of the deposited data

Results flagged for a closer look

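A single library stood apart from the other 3 of its group, by Dixon's criterion at 95%, in 8 of the 60 sets of 4 libraries examined (10 genes in 6 groups). Chance gives about 1 in 20 sets where the sets are independent. The 60 sets share their libraries, and deviations of several members went together, so their number cannot be judged by that rate. For Dusp6 these were WT DMSO replicate 4 at 44.7 CPM, WT MK-8722 replicate 2 at 31.3 CPM and WT torin1 replicate 4 at 37 CPM. For Dusp5 they were WT DMSO replicate 4 at 63.4 CPM and WT torin1 replicate 4 at 75.6 CPM. Spred1 in WT DMSO replicate 4 (78.9 CPM) and Spred2 in WT MK-8722 replicate 2 (70.5 CPM) also stood above their groups. These 7 values all come from the WT libraries of passage 12. The other is Spry1 in AMPK KO torin1 replicate 1, at 1.94 CPM, a library of passage 16. The part of passage in these values was not tested.

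The response to MK-8722 differed between the genotypes by the interaction test for Dusp4 (-1.15), Dusp6 (0.96), Spry1 (0.95), Etv4 (0.61) and Etv5 (1.1 on the log2 scale, AMPK KO minus WT). For 4 of these the values had opposite signs, being -0.48 in WT and 0.48 in AMPK KO for Dusp6, -0.63 and 0.32 for Spry1, -0.25 and 0.37 for Etv4 and -0.45 and 0.65 for Etv5. The response to torin1 differed for Dusp6 (1.03), Spry4 (1.4), Spred1 (0.3) and Etv5 (0.82).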

How the results depend on the processing

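For the 10 genes in 11 comparisons, 47 values were called and 63 were not. In the alternatives other than leaving out 1 library, 437 of 463 repeated values of these were still called and 26 were not, and 30 of 607 repeated values not called at first became calls. No called value changed sign, and 22 values changed sign without a call in either fit, none above 0.19 in size. At a fold change of at least 1.5, MK-8722 in WT called 1 of the 10 genes higher and 1 lower, AMPK KO against WT in DMSO called 4 lower, and torin1 against MK-8722 called 2 lower in WT and 0 lower in AMPK KO. With scaling by library size alone, torin1 called 2 higher in WT and 6 higher in AMPK KO, and torin1 against MK-8722 called 2 higher and 2 lower in WT and 2 higher in AMPK KO. With passage as a block, MK-8722 in AMPK KO called 6 higher and torin1 against MK-8722 in AMPK KO called 1 higher. In fits of the compared groups alone, MK-8722 in AMPK KO called 4 higher and torin1 against MK-8722 in WT called 2 lower. Without the 3 WT libraries of passage 12, torin1 in WT called 0 higher. A higher fold limit lowers these counts by its construction, and scaling by library size alone shifted the median of all genes by 0.1 and 0.06 with torin1 and by 0.09 and 0.08 for torin1 against MK-8722 in WT and AMPK KO. For the other changes the cause was not tested.

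Leaving out 1 library at a time gave 1 to 3 higher and 1 to 3 lower with MK-8722 in WT, 2 to 3 higher and 0 lower in AMPK KO, 0 to 2 higher and 2 to 3 lower with torin1 in WT, and 3 to 4 higher and 0 lower in AMPK KO. AMPK KO against WT gave 1 higher and 6 to 7 lower in DMSO, 2 higher and 2 to 3 lower in MK-8722, and 2 to 3 higher and 2 to 3 lower in torin1. Torin1 against MK-8722 gave 0 to 2 higher and 2 to 4 lower in WT and 0 to 1 higher and 2 to 3 lower in AMPK KO. The interactions gave 3 to 6 positive and 1 negative with MK-8722 and 3 to 4 positive and 0 negative with torin1.

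Replicate numbers did not pair the libraries. Deviations from group means had a median correlation of 0.02 in the 60 pairs with the same number (-0.2 to 0.25) and of 0.13 in the 24 pairs of the same passage (-0.01 to 0.37). In the 72 pairs of the same genotype and another passage the median was -0.04 (-0.25 to 0.07). Deviations within a group sum to 0, so a positive correlation within passages by itself lowers that between passages. These 72 pairs are therefore no separate contrast. A correlation over 0.1 was found in 15 of the 24 pairs of the same passage and in 0 of these 72. Libraries of a passage thus went together to a degree, and the main fit had no term for passage. Some values not called there were called with passage as a block, as given above. All 47 values called in the main fit were still called with that block. With a replicate block, MK-8722 in AMPK KO called 3 of the 10 genes higher, adding Etv4 (0.38, adjusted p = 0.035), and no other of these counts changed.

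Over all genes, a fold change of at least 1.5 lowered the number called from 2483 to 833 with MK-8722 in WT, from 247 to 64 in AMPK KO, from 7540 to 3855 with torin1 in WT, from 6879 to 3146 in AMPK KO, from 9007 to 5541, 9316 to 6003 and 8649 to 5309 between the genotypes in DMSO, MK-8722 and torin1, from 7229 to 3551 and 7202 to 3415 for torin1 against MK-8722 in WT and AMPK KO, and from 2023 to 681 and 1119 to 305 in the interactions. MK-8722 in AMPK KO called 137 genes with the length offset, 729 with passage as a block and 130, 121 or 147 without AMPK KO DMSO replicate 1, AMPK KO MK-8722 replicate 1 or replicate 4. The torin1 interaction called 1861 with passage as a block. Counts of 22 to 97 per library limit Spry1 and, in WT, Dusp4.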
